A study of Mus musculus with 4 samples.

Results

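The genes described here are 9 components of adrenergic and cyclic AMP signalling, namely the receptors Adrb1, Adra1a and Adra1b, the G protein alpha subunit gene Gnas, the adenylyl cyclases Adcy5 and Adcy6, the protein kinase A (PKA) subunits Prkaca and Prkar1a, and the anchoring protein Akap6. They were chosen by name, and each symbol matched 1 of the 55401 gene rows of the deposited table. The study used RNA-seq of mouse hearts at 8 weeks of age to compare wild-type animals with animals heterozygous for an amino acid substitution, R567W, in the chromatin architectural protein CTCF (Ctcf+/R567W). The heterozygous mice carried 1 edited and 1 wild-type allele, made by CRISPR/Cas9 in the C57BL/6N background, and there were 2 libraries per genotype. The edit was not restricted to a cell type, and whether a library came from 1 mouse or from pooled mice is not given in the sources used here. The p-values therefore measure the spread between these libraries, which may be technical.

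In the heart, noradrenaline and adrenaline act on beta receptors coupled to the stimulatory G protein, which activates adenylyl cyclase and raises cyclic AMP. Cyclic AMP binds the regulatory subunits of PKA and frees the catalytic subunits, which phosphorylate calcium channels, ryanodine receptors, phospholamban and sarcomere proteins and thereby speed and strengthen contraction and relaxation. Alpha1 receptors couple instead to Gq and phospholipase C, and A-kinase anchoring proteins hold PKA close to its substrates.

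Expression was given as TPM, a share of the transcripts of a library normalised for transcript length, which can be compared between genes. Levels below are scaled TPM, that is, TPM after division by median-of-ratios factors, which lay between 0.821 and 1.27. Mitochondrially encoded (mt-) genes and 11 nuclear copies of them took 76.0% and 78.8% of the TPM in the wild-type libraries and 82.4% and 85.8% in the heterozygous libraries, so the remaining genes shared a smaller part of the total in both heterozygous libraries. All 10 cardiomyocyte markers passed the filter on low values, with a summed level of 28968 and 27059 in wild-type and 22794 and 27478 in heterozygous libraries. The summed level of 5 atrial markers was 810.5 and 2341 in wild-type and 1911 and 3258 in heterozygous libraries, and that of 6 erythroid markers was 934.4 and 981.0 in wild-type and 961.5 and 2104 in heterozygous libraries. The noradrenergic nerve marker genes Th and Slc6a2 were each listed at 0 in 3 of 4 libraries. Fewer cells of a type and less RNA per cell cannot be told apart in such tissue libraries.

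None of the 9 genes passed the test for a difference between genotypes. The gene with the largest fitted change among those tested, Prkar1a, was 1.41-fold higher in the heterozygous hearts, and the alpha1 receptor genes Adra1a and Adra1b were at 0.586 and 0.631 of their wild-type means, but in each case the adjusted p was far above 0.05. Adcy6, Gnas, Prkaca, Adcy5, Akap6 and Adrb1 had heterozygous means between 0.904 and 1.12 of wild-type, with overlapping groups. The test was limma on log2(scaled TPM + 1) over the 10036 genes whose TPM averaged 1 or more, and calling required a fold over 1.5 together with an adjusted p below 0.05. This called 3 genes, or 0.0299% of those tested, and 0 of the 6 members that could be tested. At an unadjusted p under 0.05, 1 of the 6 was higher in the heterozygous hearts (Prkar1a) and 0 were lower, against 6.22% and 6.08% of all tested genes.

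The levels of the 9 genes spanned a wide range and kept 1 order in all 4 libraries. Gnas was the highest, with a mean scaled TPM of 112 over the 4 libraries, and was followed by Adcy6 at 55.5, Prkar1a at 19.2, Prkaca at 8.12, Adcy5 at 2.02, Akap6 at 1.05, Adra1b at 0.818, Adrb1 at 0.519 and Adra1a at 0.245. Akap6 and Adra1b were the neighbours in this order whose ranges over the 4 libraries overlapped, at 0.952 to 1.247 and 0.571 to 1.13, although Akap6 was above Adra1b within each library. For the other 7 pairs of neighbours, the lowest library of the higher gene was above the highest library of the lower one. The 3 receptor genes were thus the least abundant transcripts of the set, and all 3 had a mean TPM under 1.

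**Figure D1:**
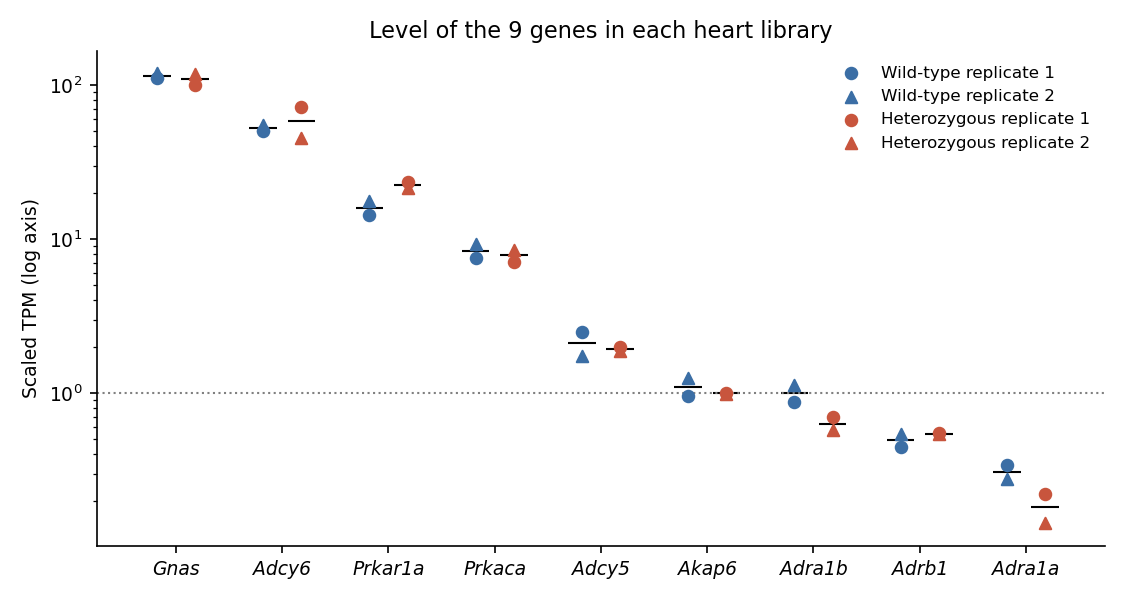
Scaled TPM (log axis) of the 9 genes in order of their mean level, with wild-type libraries in blue, heterozygous libraries in red, circles for replicate 1, triangles for replicate 2 and a black line for each group mean. The dotted line marks a scaled TPM of 1. The groups are separate for Prkar1a, which is higher in both heterozygous libraries, and for Adra1b and Adra1a, which are lower in both.

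Adrb1 (ENSMUSG00000035283.5, chr19:56722199-56733113, plus strand, mm10) encodes the beta1 receptor, the main beta receptor of cardiomyocytes. Its scaled TPM was 0.443 and 0.544 in wild-type and 0.548 and 0.538 in heterozygous libraries. The heterozygous values lay close to wild-type replicate 2, and the groups overlapped. As Adrb1 failed the filter, it was examined in a second fit over the 15675 genes whose TPM averaged 0.1 or more, with a pseudocount of 0.1, which was chosen after seeing the data. The log2 fold change of Adrb1 in that fit was 0.12 ± 0.24 (SE, limma adjusted p = 0.867). With TPM as deposited, without scaling, its log2 fold change on the TPM + 1 scale was -0.11, against 0.05 with scaling. It was -0.06 with mt- genes removed, -0.03 after a correction for GC content and length and -0.00396 without wild-type replicate 1, so its sign is not settled by these libraries.

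Adra1a (ENSMUSG00000045875.13, chr14:66635251-66771168, plus strand) and Adra1b (ENSMUSG00000050541.14, chr11:43774606-43901210, minus strand) encode the alpha1A and alpha1B receptors. The scaled TPM of Adra1a was 0.342 and 0.276 in wild-type and 0.219 and 0.143 in heterozygous libraries. The scaled TPM of Adra1b was 0.878 and 1.13 in wild-type and 0.694 and 0.571 in heterozygous libraries. Both heterozygous libraries were below both wild-type libraries for each gene. In the second fit the log2 fold change was -0.55 ± 0.33 for Adra1a (SE, limma unadjusted p = 0.155, adjusted p = 0.572) and -0.59 ± 0.24 for Adra1b (SE, limma unadjusted p = 0.0504, adjusted p = 0.468), and neither was called. This fit called 8 genes, or 0.0510% of those tested. With TPM rounded to 2 decimals and no counts, the number of reads behind these receptor values is unknown, and a fold change on the log2(TPM + pseudocount) scale understates the change of genes this low. It was -0.15 for Adra1a and -0.29 for Adra1b with a pseudocount of 1, and -0.19 for Adra1b without wild-type replicate 2. With TPM as deposited, on the same scale, it was -0.236 for Adra1a and -0.495 for Adra1b.

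Within each library, Adra1a made up 27.6% and 19.1% of the summed TPM of Adra1a, Adra1b and Adra1d in wild-type and 21.7% and 18.1% in heterozygous hearts. The groups overlapped, at 23.4% ± 6.001 against 19.9% ± 2.57 (SD, n = 2 each; two-sided exact permutation p = 0.667). Adra1b was the most abundant alpha1 receptor transcript in every library. The receptor genes Adra1d, Adra2a, Adra2b, Adra2c and Adrb3 did not exceed a scaled TPM of 0.187 in any library, and no gene of the 9 in the adrenergic receptor list reached the filter.

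RefSeq gives promoter windows of 250 bases before a transcription start (GRCm38.p6) for 7 of the 9 genes. They were searched on both strands for TGACG, the short form of the cyclic AMP response element (CRE), and TGACGTCA, its full form, which holds TGACG on each strand, and for AGGGGGC and AGGTGGC, core letters of the CTCF motif. These letters were found in 17.8%, 1.5%, 9.4% and 5.1% of all 32851 RefSeq windows, respectively. The windows of the beta1 receptor gene, of the downstream of 2 Adra1b starts and of 1 of 6 Prkar1a starts are shown, with matches in capitals, because they belong to the principal beta receptor and to 2 of the 3 genes whose groups were separate. Where a gene had several starts, the window with the most CTCF core matches (Adra1b) or CRE matches (Prkar1a) was taken, and the other windows held fewer. The percentages above are per window and do not apply to a window picked for its matches. The Adrb1 window (chr19:56721867-56722116, plus strand) holds 1 TGACG match, 90 bases before the start. The Adra1b window (chr11:43836490-43836739, minus strand, inside the gene) holds AGGGGGC on its opposite strand at 2 places, 240 and 82 bases before the start. The Prkar1a window (chr11:109650699-109650920, plus strand) was stopped 28 bases short of its start, where an annotated exon begins, and holds a TGACG match 187 bases and a full CRE 49 bases before the start. Windows of members with overlapping groups also held such matches. A Gnas window (chr2:174329756-174330005) held 2 AGGGGGC matches and 1 TGACG match. A Prkaca window (chr8:83972728-83972977) held 2 TGACG matches, while the Adcy5 and Akap6 windows held 0 of the searched letters. A match is a run of letters and not a measured binding site.
Adrb1: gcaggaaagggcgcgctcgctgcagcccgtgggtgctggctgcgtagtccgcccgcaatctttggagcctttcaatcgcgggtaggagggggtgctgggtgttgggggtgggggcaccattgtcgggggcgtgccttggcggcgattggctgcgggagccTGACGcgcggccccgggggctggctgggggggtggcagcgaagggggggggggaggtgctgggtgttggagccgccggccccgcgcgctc
Adra1b: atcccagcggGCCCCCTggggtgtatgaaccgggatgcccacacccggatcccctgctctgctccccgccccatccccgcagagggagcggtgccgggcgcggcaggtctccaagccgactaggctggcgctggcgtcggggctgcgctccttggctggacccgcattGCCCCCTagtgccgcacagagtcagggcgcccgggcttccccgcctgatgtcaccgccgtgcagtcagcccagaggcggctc
Prkar1a: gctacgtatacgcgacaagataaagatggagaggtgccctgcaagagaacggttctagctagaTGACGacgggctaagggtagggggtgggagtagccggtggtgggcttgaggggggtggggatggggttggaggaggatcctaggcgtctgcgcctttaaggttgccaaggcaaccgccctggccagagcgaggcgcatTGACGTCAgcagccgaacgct

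Gnas (ENSMUSG00000027523.20, chr2:174284320-174346744, plus strand) encodes the stimulatory G protein alpha subunit, which carries the signal from beta receptors to adenylyl cyclase. Its scaled TPM was 110.5 and 119.2 in wild-type and 100.1 and 118.2 in heterozygous libraries. Heterozygous replicate 1 was the lowest library, and the other heterozygous library lay within the wild-type values. The log2 fold change was -0.08 ± 0.19 (SE, limma adjusted p = 0.880). With TPM as deposited it was -0.511, and with mt- genes removed -0.40 (limma unadjusted p = 0.0494, adjusted p = 0.167). Both heterozygous libraries were then below both wild-type libraries, when the median gene was at -0.35 and -0.26. Gnas is an imprinted locus with several promoters, 24 annotated transcripts and an antisense gene, Gnasas1, which was listed at 0 in all 4 libraries. A value per gene cannot separate these transcripts or the parental alleles. Among 17 tested G protein subunit genes, Gnb4, a beta subunit gene, had the largest positive change, at 4.19 and 3.50 in wild-type and 6.51 and 5.49 in heterozygous libraries (adjusted p = 0.334). Gna12, a G12 family alpha subunit gene, had the largest negative change, at 3.29 and 3.86 in wild-type and 2.05 and 2.43 in heterozygous libraries (adjusted p = 0.334).

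Adcy5 (ENSMUSG00000022840.9, chr16:35154877-35305738, plus strand) and Adcy6 (ENSMUSG00000022994.9, chr15:98589973-98610076, minus strand) encode the 2 closely related, calcium-inhibited cyclases of cardiomyocytes. The scaled TPM of Adcy5 was 2.49 and 1.73 in wild-type and 1.998 and 1.878 in heterozygous libraries, so both heterozygous values lay between the wild-type values. The scaled TPM of Adcy6 was 49.997 and 54.7 in wild-type and 71.8 and 45.5 in heterozygous libraries, so the heterozygous libraries held both the highest and the lowest value. The log2 fold changes were -0.07 ± 0.16 for Adcy5 (SE, limma adjusted p = 0.873) and 0.13 ± 0.24 for Adcy6 (SE, limma adjusted p = 0.849). Adcy6 was the most abundant cyclase transcript in every library. Adcy5 made up 4.75% and 3.06% of their summed TPM in wild-type and 2.71% and 3.97% in heterozygous hearts, which overlapped (two-sided exact permutation p = 0.667, n = 2 each).

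The 3' end of Adcy6 overlaps an antisense gene, Gm29331 (chr15:98589990-98591090). The scaled TPM of Gm29331 was 13.9 and 11.04 in wild-type and 31.5 and 37.7 in heterozygous libraries, so it was higher in both heterozygous libraries. Its log2 fold change was 1.41 ± 0.19 (SE, limma adjusted p = 0.173), and it was not called. Whether the reads were counted by strand is not given in the sources used here, and without strand the reads of this overlap cannot be told apart. If all reads of Gm29331 (605 bases of transcript) were those of Adcy6 (6038 bases), an alternative chosen after seeing the data, the length-weighted level of Adcy6 would be 51.4 and 55.8 in wild-type and 74.996 and 49.3 in heterozygous libraries. The groups still overlapped, with a log2 fold change of 0.18 ± 0.23 (SE, limma adjusted p = 0.762). The reverse, Gm29331 reads counted within Adcy6, was not tested.

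The other 2 tested cyclase genes were Adcy7, at 4.25 and 3.62 in wild-type and 5.48 and 4.92 in heterozygous libraries (log2 fold change 0.33, adjusted p = 0.411), and Adcy4, at 8.50 and 7.65 in wild-type and 9.89 and 8.46 in heterozygous libraries (log2 fold change 0.16, adjusted p = 0.670). The groups of Adcy7 did not overlap and those of Adcy4 did. The direction for Adcy7 depended on the scaling between libraries. With TPM as deposited, both heterozygous libraries were below both wild-type libraries for Adcy7 and for Adcy4. Of the 4 tested cyclase genes, 3 were then separate and lower and 0 higher, when the median gene was at -0.35. The remaining 6 cyclase genes of the list failed the filter, with no scaled TPM above 0.512.

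Prkar1a (ENSMUSG00000020612.16, chr11:109649405-109669656, plus strand) encodes the type I alpha regulatory subunit, which holds the PKA catalytic subunits inactive until cyclic AMP binds. Its scaled TPM was 14.4 and 17.6 in wild-type and 23.6 and 21.4 in heterozygous libraries. Both heterozygous libraries were above both wild-type libraries, and the group means were 15.99 ± 2.28 and 22.5 ± 1.51 (SD, n = 2 each). The log2 fold change was 0.47 ± 0.17 (SE, limma unadjusted p = 0.0298), but the adjusted p was 0.368 and the gene was not called. The unadjusted p was 0.282 without wild-type replicate 1, 0.0617 without wild-type replicate 2, 0.0655 without heterozygous replicate 1 and 0.0288 without heterozygous replicate 2. Its value depended on the scaling between libraries. With TPM as deposited the levels were 15.6, 22.3, 19.3 and 19.5 in the same order, the groups overlapped, and the log2 fold change was 0.06 when that of the median gene was -0.35. With the mitochondrially encoded genes removed and TPM recomputed it was 0.16, also with overlapping groups, when that of the median gene was -0.26. With their nuclear copies removed as well it was 0.54, with a median gene at 0.04.

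Prkaca (ENSMUSG00000005469.10, chr8:83972993-83996443, plus strand) encodes the catalytic alpha subunit, the kinase itself. Its scaled TPM was 7.49 and 9.31 in wild-type and 7.11 and 8.55 in heterozygous libraries, with overlapping groups and a log2 fold change of -0.09 ± 0.17 (SE, limma adjusted p = 0.850). With TPM as deposited the log2 fold change was -0.479, and with mt- genes removed -0.379. The heterozygous libraries were then separate and lower, when the median gene was at -0.35 and -0.26. The second catalytic subunit gene, Prkacb, was at 1.598 and 1.625 in wild-type and 1.46 and 1.03 in heterozygous libraries, which did not overlap (log2 fold change -0.22, adjusted p = 0.553). Prkaca was 82.4% and 85.1% of the catalytic subunit TPM in wild-type and 83.0% and 89.2% in heterozygous hearts, and these shares overlapped (two-sided exact permutation p = 0.667, n = 2 each).

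Ratios within a library do not depend on the scaling between libraries. Prkar1a made up 89.7% and 88.0% of the summed TPM of the 4 regulatory subunit genes in wild-type and 93.3% and 92.6% in heterozygous hearts. The ratio of regulatory to catalytic subunit TPM was 1.76 and 1.83 in wild-type and 2.94 and 2.42 in heterozygous hearts, with means of 1.80 ± 0.0465 and 2.68 ± 0.374 (SD, n = 2 each). For both measures the heterozygous libraries were above the wild-type libraries. The two-sided exact permutation p was 0.333 for each, which is the smallest that 2 against 2 libraries allow, so neither could pass a threshold of 0.05. Prkar1a enters both measures and made up most of the regulatory sum. They are therefore not independent of each other or of the Prkar1a values above. Both are ratios of transcripts, and protein was not measured in these libraries.

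**Figure D2:**
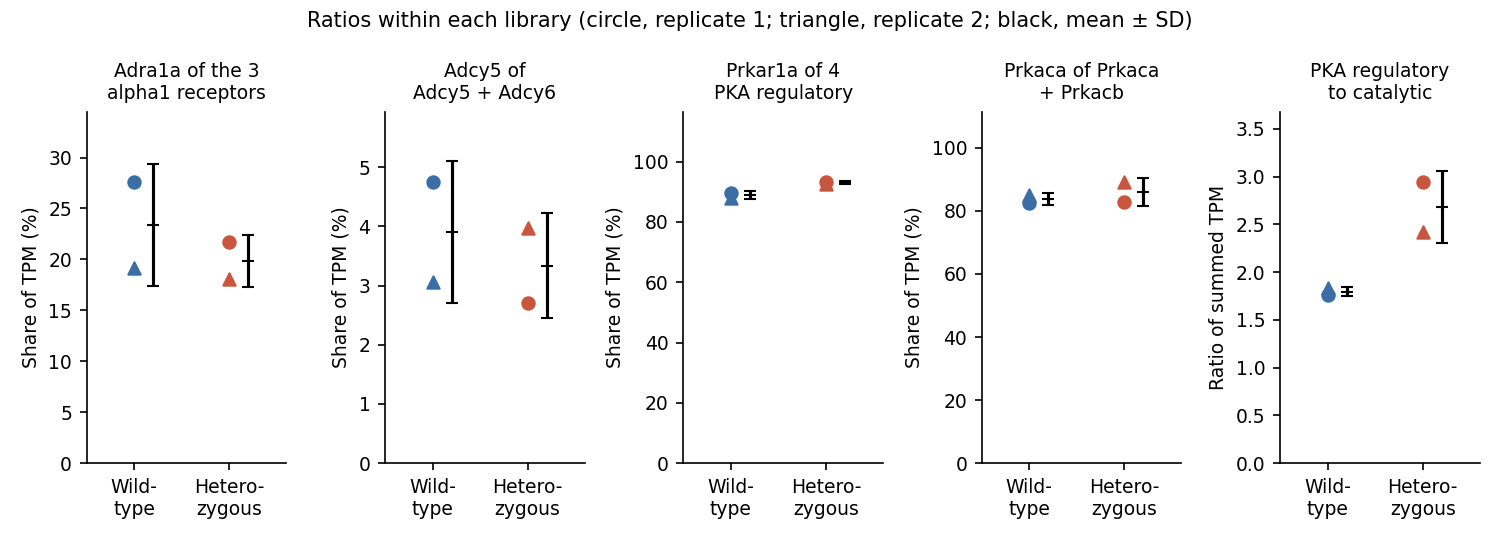
Ratios of deposited TPM within each library, with wild-type in blue, heterozygous in red, circles for replicate 1, triangles for replicate 2 and black marks for the mean and SD of 2 libraries. The first 4 panels give a share in percent and the last a ratio of summed TPM. The groups are separate for the share of Prkar1a and for the regulatory to catalytic ratio, which was 1.76 and 1.83 in wild-type and 2.94 and 2.42 in heterozygous hearts, and overlap in the other panels.

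Of the other PKA genes tested, Prkar2a, a type II regulatory subunit gene, was at 1.43 and 2.02 in wild-type and 1.44 and 1.36 in heterozygous libraries (log2 fold change -0.18, adjusted p = 0.654). The PKA inhibitor gene Pkig was at 28.2 and 28.5 in wild-type and 16.6 and 26.6 in heterozygous libraries (log2 fold change -0.41, adjusted p = 0.491), a difference carried mainly by heterozygous replicate 1. The inhibitor gene Pkia was at 8.36 and 6.80 in wild-type and 6.93 and 4.82 in heterozygous libraries (log2 fold change -0.33, adjusted p = 0.503). Prkar1a was thus the one gene of the 6 tested in this list with a positive fitted change, under each of the 6 ways of scaling, and the median log2 fold change of the list was -0.20 against -0.01 over all tested genes.

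Akap6 (ENSMUSG00000061603.8, chr12:52699383-53155599, plus strand) encodes the muscle anchoring protein mAKAP, which holds PKA at the nuclear envelope of cardiomyocytes. Its scaled TPM was 0.952 and 1.247 in wild-type and 0.999 and 0.989 in heterozygous libraries, with overlapping groups and a log2 fold change of -0.07 ± 0.15 (SE, limma adjusted p = 0.860). Among the 12 tested genes of the anchoring protein list, Mapt, the gene of the microtubule-associated protein tau, had the largest positive change, at 9.35 and 9.59 in wild-type and 17.4 and 12.96 in heterozygous libraries (log2 fold change 0.62, adjusted p = 0.334). Ezr, which encodes the membrane-cytoskeleton linker ezrin, had the largest negative change (log2 fold change -0.23, adjusted p = 0.560).

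Counted over all 9 members, the groups were separate with the heterozygous libraries lower for 2 genes (Adra1a and Adra1b) and higher for 1 gene (Prkar1a). The same counts over the 15675 genes of the second fit were 22.6% lower and 22.2% higher, and over the 10036 genes of the first fit 24.0% lower and 23.0% higher, so the members' counts were no larger than those of genes in general. The median log2 fold change of the 9 members in the second fit was -0.10, beside -0.02 over all its genes. With TPM as deposited, 6 of the 9 members were separate and lower and 0 were higher, beside 67.8% lower and 2.32% higher of all tested genes.

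**Figure D3:**
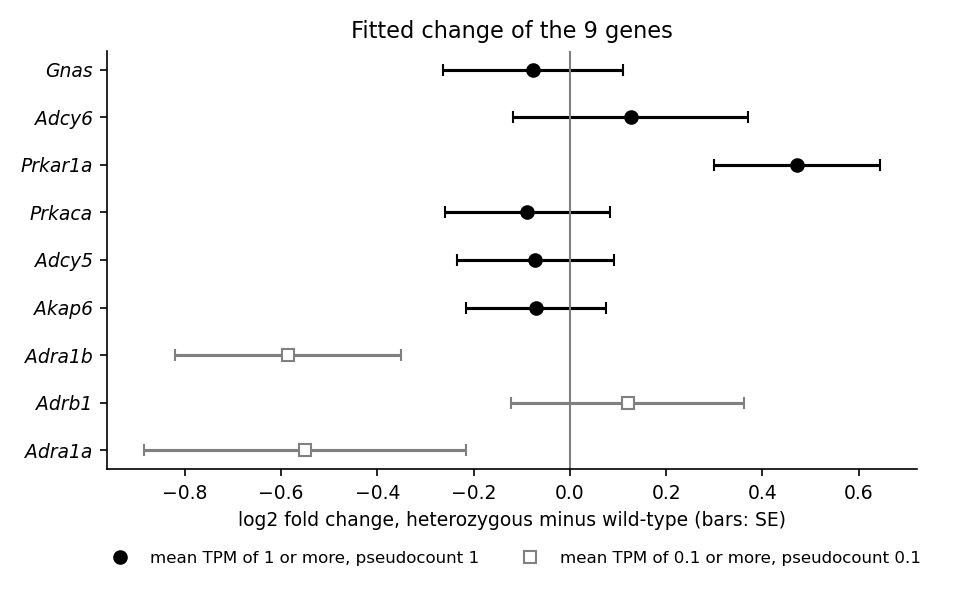
Fitted log2 fold change of the 9 genes, heterozygous minus wild-type, with bars for the SE. Black circles are from the fit over genes averaging a TPM of 1 or more and open grey squares from the fit over genes averaging 0.1 or more. Prkar1a at 0.47 is the highest, Adra1b at -0.59 and Adra1a at -0.55 are the lowest, and the bars of the other genes cross 0.

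**Figure D4:**
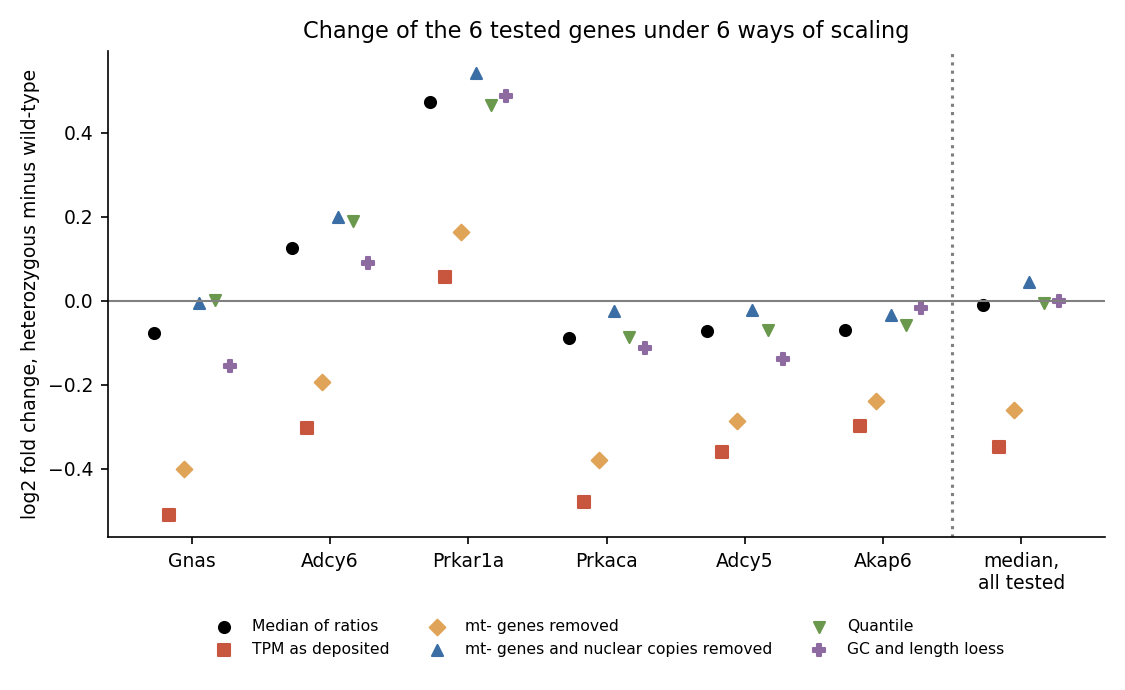
Log2 fold change of the 6 tested genes under 6 ways of scaling, with the median of all tested genes at the right. All 6 genes move down with the median when TPM are taken as deposited or when mitochondrially encoded genes alone are removed, and Prkar1a stays the highest of the 6 under each.

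The pathway around these genes was described with 12 lists that hold 151 genes of the table, 9 members included. Of the 100 that were tested, 0 were called, while 10 were higher and 4 lower in the heterozygous hearts at an unadjusted p under 0.05, and their median log2 fold change was 0.01. These compare with 6.22% higher and 6.08% lower at that threshold over all tested genes. Their number, 14, fell to 4 without wild-type replicate 1 and 7 without wild-type replicate 2, and was 25 without heterozygous replicate 2 and 29 with TPM as deposited. The groups were separate for 26 genes that were higher and 19 that were lower, near the 23.0% and 24.0% of all tested genes. With TPM as deposited 4 of the 100 were separate and higher and 67 lower, near the 2.32% and 67.8% of all tested genes. Values of the genes with the largest changes in each list are given below, and none of them passed the test after adjustment.

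The separate genes of each list below stand beside 23.0% higher and 24.0% lower over all tested genes, and beside 2.32% higher and 67.8% lower with TPM as deposited. Among the 11 tested receptor kinase, arrestin and RGS genes, which end or limit G protein signalling, 4 were separate and higher and 0 lower, whereas with TPM as deposited 1 was higher and 7 were lower. Grk2, the kinase that desensitises beta receptors, was at 8.79 and 9.35 in wild-type and 11.5 and 17.4 in heterozygous libraries (log2 fold change 0.59, adjusted p = 0.366). Rgs2, which limits Gq signalling, had the largest negative change, -0.21 (adjusted p = 0.678). Among the 11 tested cyclic AMP phosphodiesterase genes, whose products degrade cyclic AMP, 5 were separate and higher and 0 lower, whereas with TPM as deposited 1 was higher and 5 were lower. Pde4a was at 8.97 and 10.5 in wild-type and 19.6 and 16.4 in heterozygous libraries, which did not overlap (log2 fold change 0.82 ± 0.17, SE, limma unadjusted p = 0.00209, adjusted p = 0.279). The paper, which tested counts with other thresholds, names Pde4a among the genes upregulated in heterozygous hearts at this age. Pde7a had the largest negative change, -0.26 (adjusted p = 0.605).

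Of the 16 tested cardiac PKA substrates and their phosphatases, 8 were separate and lower and 1 was higher, beside 24.0% lower and 23.0% higher over all tested genes. With TPM as deposited 15 were lower and 0 higher, when 67.8% of all tested genes were lower. Cacnb2, the beta2 subunit of the L-type calcium channel, was at 17.2 and 16.1 in wild-type and 9.75 and 8.63 in heterozygous libraries (log2 fold change -0.80 ± 0.15, SE, limma unadjusted p = 0.00142, adjusted p = 0.261). Mybpc3, cardiac myosin-binding protein C, had the largest positive change, 0.35 (adjusted p = 0.490). The 10 cardiomyocyte markers had 5 genes separate and lower and 0 higher, with a median log2 fold change of -0.29, and their part in the values of these substrates and of the alpha1 receptors was not tested. Pln, which was separate and lower, and Tnni3, whose groups overlapped, belonged to both lists.

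Among 5 tested alpha1 receptor effectors, Prkcd, a protein kinase C gene, was at 11.9 and 12.9 in wild-type and 19.9 and 19.2 in heterozygous libraries (log2 fold change 0.62, adjusted p = 0.311), and Plcb3, a phospholipase C, had a change of -0.15 (adjusted p = 0.689). Among 10 tested CREB family genes, coactivators and targets, Nr4a1 was at 1.87 and 3.46 in wild-type and 5.04 and 3.16 in heterozygous libraries, which overlapped (log2 fold change 0.49, adjusted p = 0.474), and Creb1, which encodes the transcription factor CREB, was at 1.52 and 1.42 in wild-type and 1.21 and 0.824 in heterozygous libraries (log2 fold change -0.30, adjusted p = 0.456). Among 6 other cyclic AMP effectors, Hcn2, a cyclic nucleotide-gated pacemaker channel, had a log2 fold change of 0.35 (adjusted p = 0.410) and Popdc2, a cyclic AMP-binding membrane protein, one of -0.23 (adjusted p = 0.617). Only the muscarinic receptor gene Chrm2 and the adenosine receptor gene Adora2a were tested in their list, at log2 fold changes of 0.03 and -0.08 (adjusted p = 0.954 and 0.841).

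**Figure D5:**
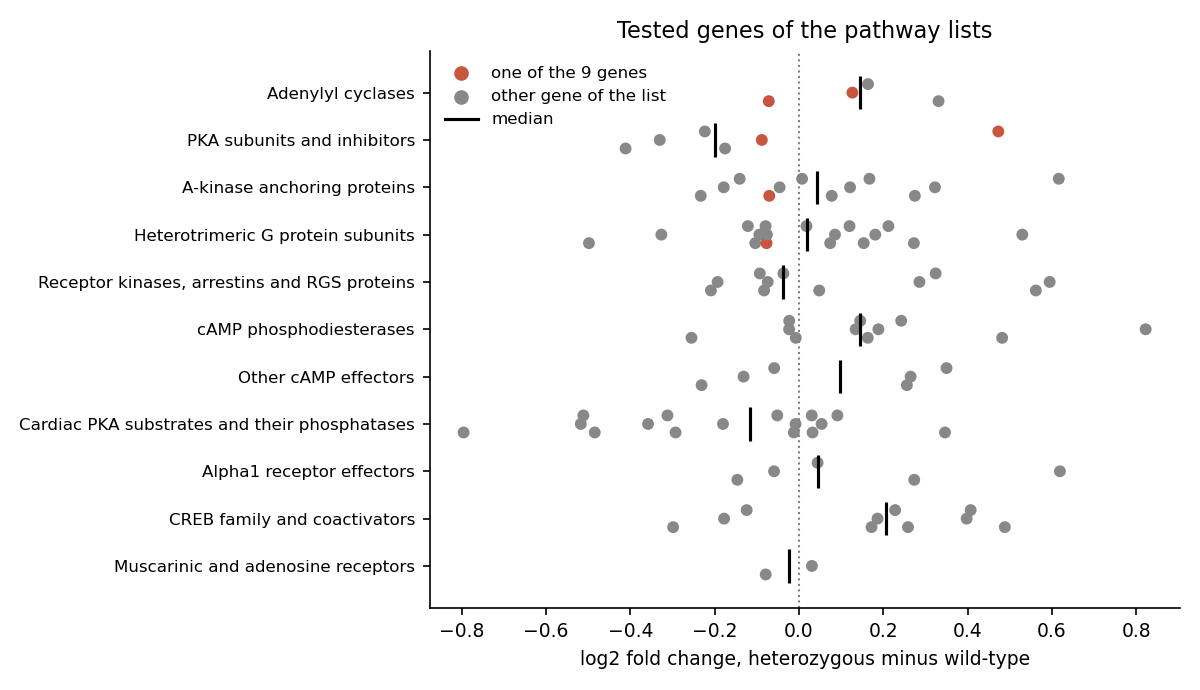
Log2 fold change of each tested gene of the pathway lists, heterozygous minus wild-type, with the members in red, other genes in grey and the list median as a black line. The adrenergic receptor list had no tested gene. The changes run from -0.80 for Cacnb2 to 0.82 for Pde4a, and the tested members other than Prkar1a lie between -0.09 and 0.13.

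For Prkar1a, the 3 tested genes with the most similar profile were found by the Euclidean distance between log2 values centred on each gene's mean over the 4 libraries. They were Olfml2b at a distance of 0.0443, Pex10 at 0.0505 and Gramd1b at 0.0579. Gramd1b, for example, was at 4.31 and 5.18 in wild-type and 7.08 and 6.38 in heterozygous libraries. With 4 libraries, such a likeness describes only which libraries were high or low.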

How the data were processed

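Genotype, age and replicate number came from the sample labels. The authors deposited TPM per gene, rounded to 2 decimals. Per the study's RNA-seq methods, the tools were Trim Galore (0.6.10) for trimming, STAR (2.7.4a) for alignment to mm10, and RSEM (1.2.28) for gene quantification. Libraries were made from poly(A) RNA. TPM carry no read depth, so counting error is unknown, no count model was fitted, and an exact 0 may be a failed estimate.

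Each library was divided by its median-of-ratios factor over the 17041 genes above 0 in every library. Scaled TPM plus a pseudocount of 1 were log2 transformed, and the 10036 genes averaging a TPM of 1 or more were tested two-sided with limma (3.58.1, R 4.3.3, eBayes with trend, no covariate) and Benjamini-Hochberg adjustment over all of them. The script was tested on simulated data. Of 55401 gene identifiers, 55141 matched GENCODE M21. Nuclear copies of mitochondrial genes were transcripts matching at 95% identity over 80% of their length (BLAST+ 2.17.0). Members and lists were chosen with earlier results of these data known. Named genes were the 9 members, every tested gene of the adrenergic receptor, cyclase and PKA lists, the largest rise and fall of each other list, any called gene and the 3 nearest profiles. Gm29331, Th, Slc6a2 and untested receptors were named outside this rule, after their values were seen. Alternatives were other pseudocounts, filters, scalings and fits, a replicate block and leaving out each library.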

Additional observations from a re-analysis of the deposited data

How the results depend on the processing

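No member and no pathway gene was called under any alternative, and at an unadjusted p under 0.05 with any fold the counts were 1 member (Prkar1a) and 14 pathway genes. Across the alternatives that tested the same genes, the pathway count ran from 4 without wild-type replicate 1 to 29 with TPM as deposited. The member count was 0 with TPM as deposited and without wild-type replicate 1, wild-type replicate 2 or heterozygous replicate 1, 2 (Prkar1a and Adcy6) without heterozygous replicate 2 and with the plain sum of Gm29331 and Adcy6, and 1 after removal of mt- genes, which was Gnas at -0.40. Prkar1a stayed higher in the heterozygous hearts in all 19 alternatives, with a log2 fold change from 0.0556 to 0.606 and an adjusted p from 0.19 to 1.0. The count of separate members was 6 lower and 0 higher both when TPM were used as deposited and after removal of mt- genes, 2 higher with the plain TPM sum of Gm29331 and Adcy6 (added after seeing the data, and not a transfer of reads), and 3 to 5 lower and 1 to 3 higher when each library was left out, where 1 library stands alone and is assumed to vary like the others. Adcy6 reversed to -0.304 without scaling of the deposited TPM and to -0.194 after removal of mt- genes, and Gnas to 0.000306 under quantile normalization. Without scaling, Adcy5 was at -0.361 and Akap6 at -0.299, and after removal of mt- genes at -0.288 and -0.239. Their heterozygous libraries were separate and lower under both. Adrb1, which was not tested, changed sign to -0.106, -0.0647 and -0.0288 without scaling, after removal of mt- genes and under the GC and length correction. Leaving out each library gave log2 fold changes from -0.245 to 0.101 for Adcy5, -0.202 to 0.446 for Adcy6, -0.201 to 0.0378 for Gnas, -0.235 to 0.0499 for Prkaca, -0.175 to 0.0291 for Akap6, -0.00396 to 0.0911 for Adrb1, -0.208 to -0.106 for Adra1a and -0.382 to -0.194 for Adra1b. It gave differences from -7.74 to 0.745 percentage points for the Adra1a share, -1.42 to 0.275 for the Adcy5 share, -0.823 to 5.44 for the Prkaca share, 3.23 to 4.96 for the Prkar1a share and 0.619 to 1.15 for the regulatory to catalytic ratio. With 1 added to each TPM, the Adra1a share reversed to 0.834 and the Prkaca share to -0.041 percentage points. The changes of sign came without wild-type replicate 1 for Adcy5, Adrb1, the Adra1a share and the Adcy5 share, without wild-type replicate 2 for Prkaca and Akap6, without heterozygous replicate 1 for Adcy6, Gnas, Prkaca (0.0255) and the Adcy5 share (0.0594), and without heterozygous replicate 2 for the Prkaca share. The cause of these changes was not tested.

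Replicate numbers are shared by the genotypes but name no common animal or day, and deviations of same-numbered libraries correlated at 0.101 across genes. Adding the replicate block left 0 members called and Prkar1a at 0.473, and moved the calls over all genes from 3 to 11. Over all tested genes the calls were 13 without scaling, 21 after removal of mt- genes and 7 with their copies removed as well, and ranged from 0 without a filter to 23 without wild-type replicate 2. The depth behind each value is unknown, so counting error could not be given for any gene.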
